A study of Homo sapiens with 9 samples.

Results

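The genes described here encode the CCN proteins (CTGF, CYR61, NOV, WISP1 and WISP2, under their older symbols), the thrombospondins (THBS1, THBS2, THBS3 and THBS4) and AMOTL2, a target and inhibitor of the transcriptional coactivator YAP. They were taken by symbol, and all 10 were found among the 23610 genes of an expression table of GIST-T1, a human cell line grown from a gastrointestinal stromal tumour (GIST). PolyA RNA was sequenced from 9 libraries. In 3 of them the cells carried an sgRNA against ETV1, an ETS transcription factor of GIST, in 3 an sgRNA against HAND1, a basic helix-loop-helix factor of mesoderm, and in 3 a control sgRNA against Luciferase, a gene that human cells lack. All groups share the single cell line, the sgRNA sequences are not among the labels, and no label ties the libraries of a group to separate cultures, so each p-value below speaks of the spread between libraries, which may be technical.

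CCN proteins are secreted, cysteine-rich matricellular proteins: they sit in the matrix without building it and act on cells through integrins, heparan sulphate proteoglycans and growth factors. Thrombospondins are large secreted glycoproteins that form trimers or pentamers, bind integrins, CD36 and CD47, and in the case of THBS1 can release TGF-beta from its latent complex. CTGF, CYR61 and AMOTL2 are textbook targets of YAP and TAZ, coactivators that the Hippo kinases hold in the cytoplasm and that act in the nucleus through TEAD factors, and CTGF and THBS1 are also induced by TGF-beta. AMOTL2 is an angiomotin, a junction and actin protein that binds YAP.

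Levels are in FPKM, fragment counts divided by transcript length and by a size of each library, whose scaling the sources used here do not give. Taking Luciferase sgRNA replicate 1 as 1, the other libraries had a depth of 0.636 to 0.952. Luciferase sgRNA replicate 3 stood apart with a summed FPKM of 538689, against 451286 to 479939 in the other 8 libraries; values without it are given below for the tested genes against the control. Both targeted transcripts were lower with their own sgRNA (ETV1 at 11.4 ± 0.571 FPKM against 39.7 ± 2.42, and HAND1 at 38.3 ± 2.25 against 114 ± 1.12; SD, n = 3). The GIST markers KIT, ANO1, ETV1, HAND1, PRKCQ and CD34 all had a mean above 1 FPKM. Of 7 endothelial and 5 platelet markers, which would mark other rich sources of thrombospondin, all were below 1 FPKM, with summed levels of 0.180 to 0.556 and 0.346 to 0.846 FPKM per library. Of 5 blood cell markers 4 were below 1 FPKM, CD68 being the exception, and of 6 epithelial markers 4 were, KRT8 and KRT18 being the exceptions. The blood cell markers summed to 4.41 to 5.66 FPKM in the control, 5.75 to 7.20 with ETV1 sgRNA and 5.47 to 7.64 with HAND1 sgRNA, where CD68 was called higher (0.50, log2, adjusted p = 0.0466). That call was kept in 10 of 19 alternatives, with adjusted p up to 0.151 without HAND1 sgRNA replicate 2 and 0.112 without Luciferase sgRNA replicate 3. KIT and PRKCQ were called lower with HAND1 sgRNA, KIT not with quantile normalization (0.129). The part of these shifts in the results below was not tested.

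**Figure D1:**
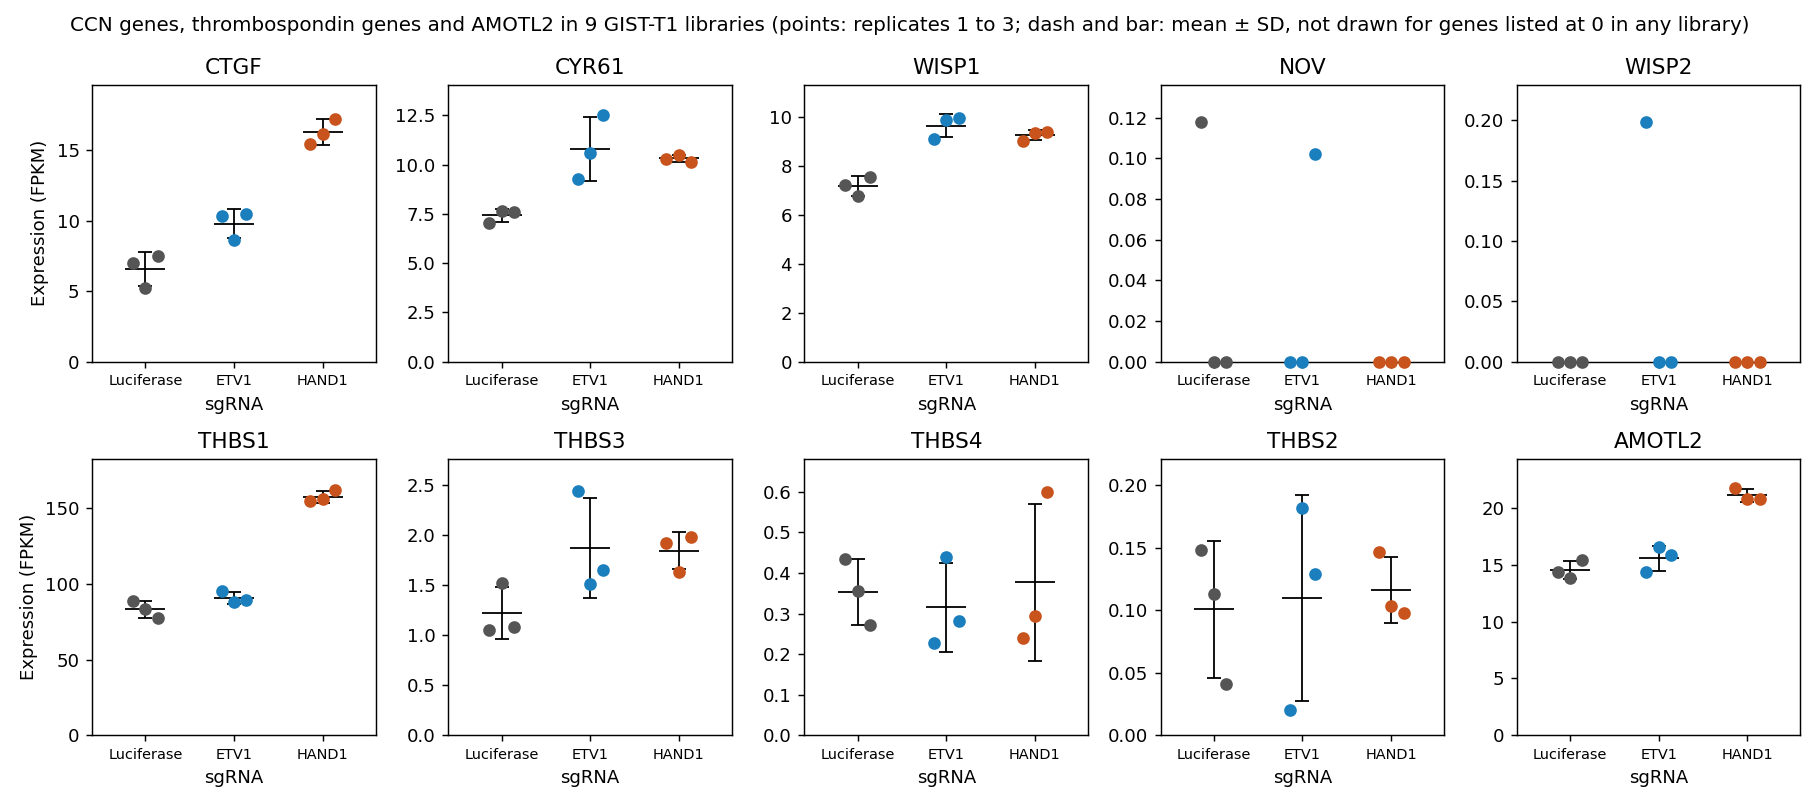
Expression in FPKM (vertical axis, from 0, with its own scale in each panel) of the 10 genes in the 3 libraries of each sgRNA; points are replicates 1 to 3 and the dash with its bar is the mean ± SD, left out for NOV and WISP2. CTGF, THBS1 and AMOTL2 are highest in the HAND1 sgRNA libraries. CTGF, CYR61 and WISP1 are higher than the control in the libraries of both other sgRNAs.

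The order of the levels was the same at its top in every group. THBS1 came first, at 83.3 ± 5.79 FPKM with Luciferase sgRNA, and AMOTL2 second, at 14.5 ± 0.789 FPKM. CYR61 (7.44 ± 0.331 FPKM), WISP1 (7.16 ± 0.397) and CTGF (6.57 ± 1.21) followed, and the ranges of neighbours among these 3 overlapped in the control and in the ETV1 sgRNA libraries. With HAND1 sgRNA they did not overlap, and CTGF stood above CYR61, which stood above WISP1. THBS3 was next in each group, at 1.22 ± 0.263 FPKM in the control, and THBS4, THBS2, NOV and WISP2 were below 1 FPKM throughout. Of the sum over the 10 genes, THBS1 made up between 63.7% and 72.9% in a library.

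The test was limma on log2(FPKM + 1), for genes whose mean over the 9 libraries reached 1 FPKM, and a gene was called where its Benjamini-Hochberg adjusted p over all 11348 genes tested was under 0.05. The scale understates the change of low genes. CTGF, CYR61, WISP1, THBS1, THBS3 and AMOTL2 were tested, each being above 1 FPKM in every library, and the other 4 genes were not.

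With HAND1 sgRNA, THBS1, CTGF, AMOTL2, CYR61 and WISP1 rose over Luciferase sgRNA, so that 5 of the 6 tested genes were called higher and 0 lower; among all genes tested limma called 3.67% higher and 2.93% lower (6.60% in either direction). In all 6 genes the 3 HAND1 sgRNA libraries lay above the 3 controls, which held for 13.0% of all genes tested. The median difference of the 6 genes was 0.47 (log2), beside −0.01 over all genes tested. In bulk RNA a larger share of cells with a transcript and more of it per cell cannot be told apart.

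With ETV1 sgRNA the 6 differences from the control were also above 0, but limma called 0 of 6 (4 had an unadjusted p under 0.05), while it called 0.141% of all genes tested higher and 0.0617% lower (0.203% in either direction); 46.9% of all genes tested had a difference above 0. CTGF, CYR61 and WISP1, 3 of the 6, had all 3 ETV1 sgRNA libraries above all 3 controls, against 6.88% of all genes tested. The median difference of the 6 genes was 0.37 (log2), beside −0.01 over all genes tested. Both sets of differences use the same 3 control libraries, so a control library that is low for a gene enters both.

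Set directly against ETV1 sgRNA, the HAND1 sgRNA libraries had higher THBS1, CTGF and AMOTL2, 3 of the 6 tested genes, with 0 called lower. Over all genes tested limma called 2.01% higher and 2.04% lower (4.05% in either direction). In these 3 genes the HAND1 sgRNA libraries lay above every ETV1 sgRNA library, which held for 10.9% of all genes tested. CYR61, WISP1 and THBS3 were not called, with differences of −0.05, −0.05 and 0.00017 (log2).

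**Figure D2:**
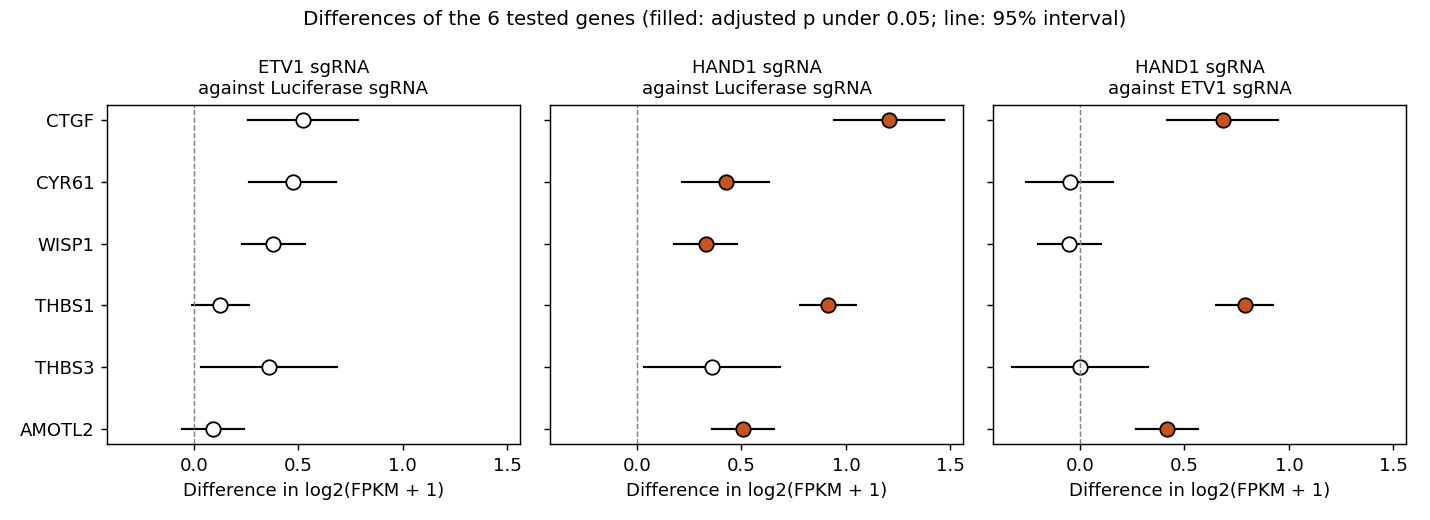
Differences in log2(FPKM + 1) (horizontal axis) of the 6 tested genes in the 3 comparisons, with their 95% intervals as lines; filled points have an adjusted p under 0.05. THBS1, CTGF and AMOTL2 lie to the right of 0 both against Luciferase sgRNA and against ETV1 sgRNA, while CYR61 and WISP1 differ little between the sgRNAs of HAND1 and ETV1 (−0.05 each).

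CTGF, the CCN protein best known as a fibrotic growth cofactor, was at 7.02, 5.20 and 7.48 FPKM in Luciferase sgRNA replicates 1, 2 and 3, at 10.4, 8.60 and 10.5 FPKM with ETV1 sgRNA, and at 15.5, 16.2 and 17.3 FPKM with HAND1 sgRNA. The 3 groups did not overlap, and Luciferase sgRNA replicate 2 was the lowest library of all. CTGF rose by 1.21 (log2, SE 0.119, 95% interval 0.94 to 1.47, adjusted p = 2.12e-04) with HAND1 sgRNA, to 2.48 times the control mean. It was also higher with HAND1 sgRNA than with ETV1 sgRNA, by 0.68 (0.42 to 0.95, adjusted p = 0.00927). That call stayed just under the threshold when some libraries were left out. The adjusted p was 0.0434 without ETV1 sgRNA replicate 2, and 0.0401 and 0.0478 without HAND1 sgRNA replicates 2 and 3. With ETV1 sgRNA the difference from the control was 0.52 (0.26 to 0.79, adjusted p = 0.209), and it was 0.61 (adjusted p = 0.106) without Luciferase sgRNA replicate 3. Library weights in limma, one of the alternatives, gave 0.68 (adjusted p = 0.0387) for that last comparison, past the threshold. Without Luciferase sgRNA replicate 3 the rise with HAND1 sgRNA was 1.29 (adjusted p = 1.69e-04).

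The 250 bases before the start of CTGF are shown because they hold the letters that TEAD factors are known to bind. They come from RefSeq (GRCh38.p14, minus strand, chr6:131951373-131951622) and are written 5′ to 3′ with GGAATG in capitals.
CTGF: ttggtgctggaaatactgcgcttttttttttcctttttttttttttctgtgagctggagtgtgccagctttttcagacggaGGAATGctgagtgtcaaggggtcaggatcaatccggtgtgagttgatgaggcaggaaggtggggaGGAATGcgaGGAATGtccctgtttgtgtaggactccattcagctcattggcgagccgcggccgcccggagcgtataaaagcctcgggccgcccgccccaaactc
GGAATG stood there 3 times, beginning 169, 104 and 95 bases before the start.

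CYR61, a secreted integrin ligand and the nearest relative of CTGF among the genes that were expressed, was at 7.06, 7.65 and 7.61 FPKM in the control libraries, at 9.28, 10.6 and 12.5 FPKM with ETV1 sgRNA and at 10.3, 10.5 and 10.2 FPKM with HAND1 sgRNA. Both sgRNA groups lay above the control, and the range of the ETV1 sgRNA libraries enclosed that of the HAND1 sgRNA libraries. CYR61 rose by 0.42 (log2, SE 0.094, 95% interval 0.22 to 0.63, adjusted p = 0.0231) with HAND1 sgRNA. With ETV1 sgRNA it differed from the control by 0.47 (0.27 to 0.68, adjusted p = 0.124), which was not called. The direct difference between the sgRNAs of HAND1 and ETV1 was −0.05 (−0.26 to 0.16, adjusted p = 0.874), and −0.14 and 0.05 without ETV1 sgRNA replicates 1 and 3. The call with HAND1 sgRNA was lost when some libraries were left out: the adjusted p was 0.0729 and 0.0587 without Luciferase sgRNA replicates 1 and 2, and 0.0725, 0.0803 and 0.0702 without HAND1 sgRNA replicates 1, 2 and 3, at differences of 0.39 to 0.44. Without Luciferase sgRNA replicate 3 it was 0.0403, and the difference with ETV1 sgRNA was 0.49 (adjusted p = 0.156).

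WISP1, a CCN protein named for its induction by WNT1, was at 7.20, 6.75 and 7.54 FPKM in the control libraries, at 9.07, 9.85 and 9.94 FPKM with ETV1 sgRNA and at 9.02, 9.34 and 9.37 FPKM with HAND1 sgRNA. As for CYR61, all libraries of both sgRNAs lay above the control and overlapped each other. WISP1 rose by 0.33 (log2, SE 0.068, 95% interval 0.18 to 0.48, adjusted p = 0.0171) with HAND1 sgRNA, and the adjusted p was 0.0712 without Luciferase sgRNA replicate 2 and 0.0632 and 0.0692 without HAND1 sgRNA replicates 2 and 3. With ETV1 sgRNA the difference was 0.38 (0.23 to 0.53, adjusted p = 0.0810), and with library weights it was 0.42 (adjusted p = 0.0221), past the threshold. Between the sgRNAs of HAND1 and ETV1 it was −0.05 (−0.20 to 0.10, adjusted p = 0.810), and −0.09 and −0.03 without ETV1 sgRNA replicates 1 and 3. Leaving out Luciferase sgRNA replicate 3 gave 0.0222 with HAND1 sgRNA and 0.0939 with ETV1 sgRNA as adjusted p.

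The balance between CTGF and CYR61 can be read within a library, as a ratio of their levels in FPKM. It was 0.995, 0.679 and 0.983 in the control libraries, 1.12, 0.812 and 0.838 with ETV1 sgRNA, and 1.50, 1.54 and 1.70 with HAND1 sgRNA. The control and ETV1 sgRNA libraries overlapped, and all 3 HAND1 sgRNA libraries lay above them. No test was run on this ratio.

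The other CCN genes were barely detected. NOV, a growth-inhibitory CCN protein, was at 0.118 FPKM in Luciferase sgRNA replicate 1 and 0.102 FPKM in ETV1 sgRNA replicate 3 and was listed at 0 in the other 7 libraries. WISP2, which lacks the C-terminal module of its relatives, was at 0.198 FPKM in ETV1 sgRNA replicate 1 and listed at 0 in the other 8. WISP3, the remaining CCN gene, was at 0.0999 FPKM in HAND1 sgRNA replicate 2 and listed at 0 elsewhere. These values allow no comparison between the groups.

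THBS1, the thrombospondin that inhibits angiogenesis and activates latent TGF-beta, was at 88.9, 83.5 and 77.3 FPKM in the control libraries, at 95.4, 87.9 and 89.4 FPKM with ETV1 sgRNA and at 155, 156 and 162 FPKM with HAND1 sgRNA. The control and ETV1 sgRNA libraries overlapped, and the HAND1 sgRNA libraries lay far above both. THBS1 rose by 0.91 (log2, SE 0.061, 95% interval 0.78 to 1.05, adjusted p = 1.81e-05) with HAND1 sgRNA, to 1.89 times the control mean, and was higher than with ETV1 sgRNA by 0.79 (0.65 to 0.92, adjusted p = 5.26e-05). With ETV1 sgRNA the difference from the control was 0.13 (−0.01 to 0.26, adjusted p = 0.639), an interval that leaves room for a change of up to 0.26. Without Luciferase sgRNA replicate 3, the lowest library for this gene, the 2 differences from the control were 0.86 (adjusted p = 1.67e-05) with HAND1 sgRNA and 0.08 (adjusted p = 0.688) with ETV1 sgRNA.

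The window before the start of THBS1 is shown beside that of CTGF, since both genes rose with HAND1 sgRNA. It comes from RefSeq (GRCh38.p14, plus strand, chr15:39580829-39581078), 5′ to 3′, with GGAATG in capitals.
THBS1: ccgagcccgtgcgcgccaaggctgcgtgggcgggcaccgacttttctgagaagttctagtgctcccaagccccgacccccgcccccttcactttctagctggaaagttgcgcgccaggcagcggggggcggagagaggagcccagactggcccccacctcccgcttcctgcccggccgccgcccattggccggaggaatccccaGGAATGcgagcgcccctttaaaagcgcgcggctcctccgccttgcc
It held GGAATG once, beginning 46 bases before the start.

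THBS3, a pentameric thrombospondin of skeletal tissue, was at 1.05, 1.52 and 1.08 FPKM in the control libraries, at 2.43, 1.51 and 1.65 FPKM with ETV1 sgRNA and at 1.92, 1.63 and 1.98 FPKM with HAND1 sgRNA. All HAND1 sgRNA libraries lay above the control, whereas ETV1 sgRNA replicate 2 lay just below Luciferase sgRNA replicate 2. The differences from the control were 0.36 (log2, 95% interval 0.04 to 0.69, adjusted p = 0.560) with ETV1 sgRNA and 0.36 (0.04 to 0.69, adjusted p = 0.193) with HAND1 sgRNA, neither of them called. The first was 0.22 without ETV1 sgRNA replicate 1, the highest library for this gene. Without Luciferase sgRNA replicate 3 both were 0.32 (adjusted p = 0.560 and 0.331). Exons of THBS3 overlap those of MTX1 on the opposite strand in the GENCODE annotation, and the libraries were not stranded, so reads of both genes cannot be told apart where they overlap. MTX1 was at 9.78 FPKM over the 9 libraries and differed from the control by −0.13 (adjusted p = 0.872) and −0.24 (adjusted p = 0.391). For CTGF and THBS1 the annotation also lists overlapping genes on the opposite strand; of these FSIP1, at THBS1, was at 0.309 FPKM and the others were not analysed here.

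The remaining thrombospondins were low and showed no separation of the groups. THBS4, found in tendon and muscle, was at 0.434, 0.355 and 0.272 FPKM in the control, 0.227, 0.439 and 0.283 FPKM with ETV1 sgRNA and 0.240, 0.293 and 0.599 FPKM with HAND1 sgRNA. THBS2, the close paralog of THBS1, was at 0.149, 0.113 and 0.0412 FPKM in the control, 0.0201, 0.182 and 0.129 FPKM with ETV1 sgRNA and 0.147, 0.104 and 0.0981 FPKM with HAND1 sgRNA. In both genes every pair of groups overlapped. With no filter on low values limma gave differences from the control of −0.04 and 0.02 for THBS4 and of 0.01 and 0.02 for THBS2 with ETV1 sgRNA and HAND1 sgRNA (adjusted p of 0.970 and 0.984, and of 1.00 and 0.921). COMP, the pentameric thrombospondin of cartilage, had a highest value of 0.139 FPKM and was listed at 0 in 5 libraries.

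AMOTL2 was at 14.3, 13.9 and 15.4 FPKM in the control libraries, at 14.4, 16.5 and 15.8 FPKM with ETV1 sgRNA and at 21.7, 20.8 and 20.7 FPKM with HAND1 sgRNA. The first 2 groups overlapped and the HAND1 sgRNA libraries lay above both. AMOTL2 rose by 0.51 (log2, SE 0.067, 95% interval 0.36 to 0.66, adjusted p = 0.00133) with HAND1 sgRNA, to 1.45 times the control mean, and was higher than with ETV1 sgRNA by 0.41 (0.27 to 0.56, adjusted p = 0.00613). With ETV1 sgRNA the difference from the control was 0.09 (−0.05 to 0.24, adjusted p = 0.782), and it was 0.15 and 0.05 without ETV1 sgRNA replicates 1 and 2. Without Luciferase sgRNA replicate 3 the rise with HAND1 sgRNA was 0.55 (adjusted p = 0.00145) and the difference with ETV1 sgRNA 0.13 (adjusted p = 0.569). Of the other angiomotins, AMOT was at 3.35 ± 0.457 FPKM in the control, 3.84 ± 0.0428 with ETV1 sgRNA and 2.78 ± 0.105 with HAND1 sgRNA, with differences of 0.16 and −0.20 that were not called (adjusted p = 0.747 and 0.295), and AMOTL1 was at most 0.0546 FPKM. AMOTL2 overlaps the ribosomal protein pseudogene RPL39P5 on its own strand, which was not analysed here.

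AMOTL2 has 2 starts in the RefSeq table, and the window before the inner start held the reverse complement CATTCC once, beginning 69 bases before it. The window before its outer start held neither GGAATG nor CATTCC. THBS2, which was near 0 in GIST-T1, held CATTCC and GGAATG once each, beginning 103 and 91 bases before its start. The 30 bases around these letters are shown to set a gene that rose beside one that was hardly expressed (RefSeq, GRCh38.p14, minus strand, chr3:134374499-134374528 and chr6:169253926-169253955, 5′ to 3′, matches in capitals).
AMOTL2: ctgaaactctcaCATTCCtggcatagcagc
THBS2: tgatgtCATTCCttcgaaGGAATGaattaa
A match was in the windows of CTGF and THBS1 and in the inner window alone of AMOTL2, genes which rose with HAND1 sgRNA. CYR61 and WISP1 also rose, and no window was available to search for them. A match was also in the window of THBS2, whose level was not tested. Whether these letters had a part in any rise was not tested.

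Windows of 250 bases were found for 6 of the 10 genes (CTGF, THBS1, THBS2, THBS3, THBS4 and AMOTL2), with none printed for CYR61, NOV, WISP1 and WISP2. Exons of the GENCODE annotation covered part of some windows. They took up 62 bases of the outer and 147 of the inner AMOTL2 window, and 105 of the THBS2 window. In the windows of THBS3 they took up 84 and 154 bases (the latter of MTX1), and in those of THBS4 129 and 0. For CTGF and THBS1 they took up 1 and 0 bases. GGAATG on either strand was present in 11.9% of the 35116 windows of the RefSeq table, at least 2 times in 0.940% and at least 3 times, as in CTGF, in 0.0826%. It contains GGAA, the core letters that ETS factors also bind. The windows of THBS3 and THBS4, with 2 starts each, held no GGAATG. The E-box CANNTG, the kind of site that basic helix-loop-helix factors bind, was in no window of CTGF, THBS1 or AMOTL2. It was in the window of THBS2, in 1 of the 2 of THBS3 and in each of the 2 of THBS4, beside 61.8% of all windows. CATCTG, a case of CANNTG, was in no window of the 6 genes, beside 12.2% of all windows. CCGGAA, a longer ETS motif, was in 1 of the 2 windows of THBS3 and in each of the 2 of THBS4 (14.5% of all windows). Neither the AP-1 motif TGANTCA (6.57%) nor the CArG box of SRF (1.16%) was in any window of the 6 genes. Both strands were searched, and a match or its lack describes the letters of these windows and nothing about the binding of a factor.

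Across the 9 libraries, likeness of pattern was measured as Pearson's r of log2(FPKM + 1). It is given as a description, since the points share 3 groups. THBS1, CTGF and AMOTL2 had an r of 0.901 to 0.927 with each other, and CYR61 and WISP1 had an r of 0.934. Across these sets r ran from 0.444 (THBS1 and CYR61) to 0.732 (CTGF and WISP1). For CTGF and CYR61 r was 0.667, so CTGF was not cleanly apart from CYR61 and WISP1. The tested gene most like THBS1 was PEG10, a retrotransposon-derived imprinted gene (r = 0.994; 71.5, 78.3 and 119 FPKM with the sgRNAs of Luciferase, ETV1 and HAND1). For CTGF it was VIPR2, a receptor of vasoactive intestinal peptide (r = 0.990; 4.93, 6.83 and 11.2 FPKM), followed by PITX1 and MATN2, and for AMOTL2 it was FAM198B (r = 0.990; 0.555, 0.697 and 2.35 FPKM). FAM198B reached the filter on low values through its HAND1 sgRNA libraries, the group in which AMOTL2 is also highest, so its likeness is not independent of that filter. The next genes most like AMOTL2 were HRH1 (r = 0.983) and APLP2 (r = 0.971). APLP2 was far above the filter, at 442, 446 and 562 FPKM with the sgRNAs of Luciferase, ETV1 and HAND1. The genes most like CYR61 were MTMR1 (r = 0.950) and ECM1, a matrix protein (r = 0.949), and those most like WISP1 were HIATL1 (r = 0.974) and JUN (r = 0.959).

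The counts of the related lists stand beside 0.203%, 6.60% and 4.05% of all genes tested called in either direction with ETV1 sgRNA, with HAND1 sgRNA and between them. Of 19 tested Hippo kinases and adaptors limma called 0 in each of the 3 comparisons, with median differences of −0.03 with ETV1 sgRNA and 0.02 with HAND1 sgRNA; with so few genes a count of 0 is near those shares. The adaptor MOB1A, at 85.3 FPKM over all libraries, and the kinase TAOK2, at 38.1 FPKM, were the highest of them. Among 7 tested YAP, TAZ, TEAD and VGLL factors, WWTR1, which encodes TAZ, was called: it was at 51.7 ± 3.35 FPKM in the control, 55.8 ± 1.09 with ETV1 sgRNA and 65.1 ± 3.29 with HAND1 sgRNA, a rise of 0.33 (log2, adjusted p = 0.00928) with the latter. YAP1 was at 20.7 ± 1.01, 20.9 ± 0.750 and 21.6 ± 1.25 FPKM and was not called (0.06 with HAND1 sgRNA, adjusted p = 0.670).

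Of 14 tested YAP and TAZ target genes other than CTGF, CYR61 and AMOTL2, 3 rose with HAND1 sgRNA, 1 fell and 10 were not called. Over all genes tested limma called 3.67% higher and 2.93% lower. The median difference of the 14 genes was −0.01, equal to that of all genes tested. The targets that rose were IGFBP3, a binder of insulin-like growth factors (1.57, from 1.78 ± 0.0834 to 7.28 ± 0.253 FPKM), MYOF, a membrane repair protein (0.46, from 24.4 ± 2.08 to 33.7 ± 0.754 FPKM), and F3, tissue factor (0.57, from 1.84 ± 0.0192 to 3.23 ± 0.400 FPKM). CCDC80, a matrix protein, fell by 0.62. With ETV1 sgRNA IGFBP3 alone was called (0.84, adjusted p = 0.00306), the median being 0.02. ANKRD1 and AXL, other textbook targets, were below 1 FPKM and not tested. LATS2, PTPN14 and AJUBA, none of them called, count both among these targets and among the Hippo kinases and adaptors.

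**Figure D3:**
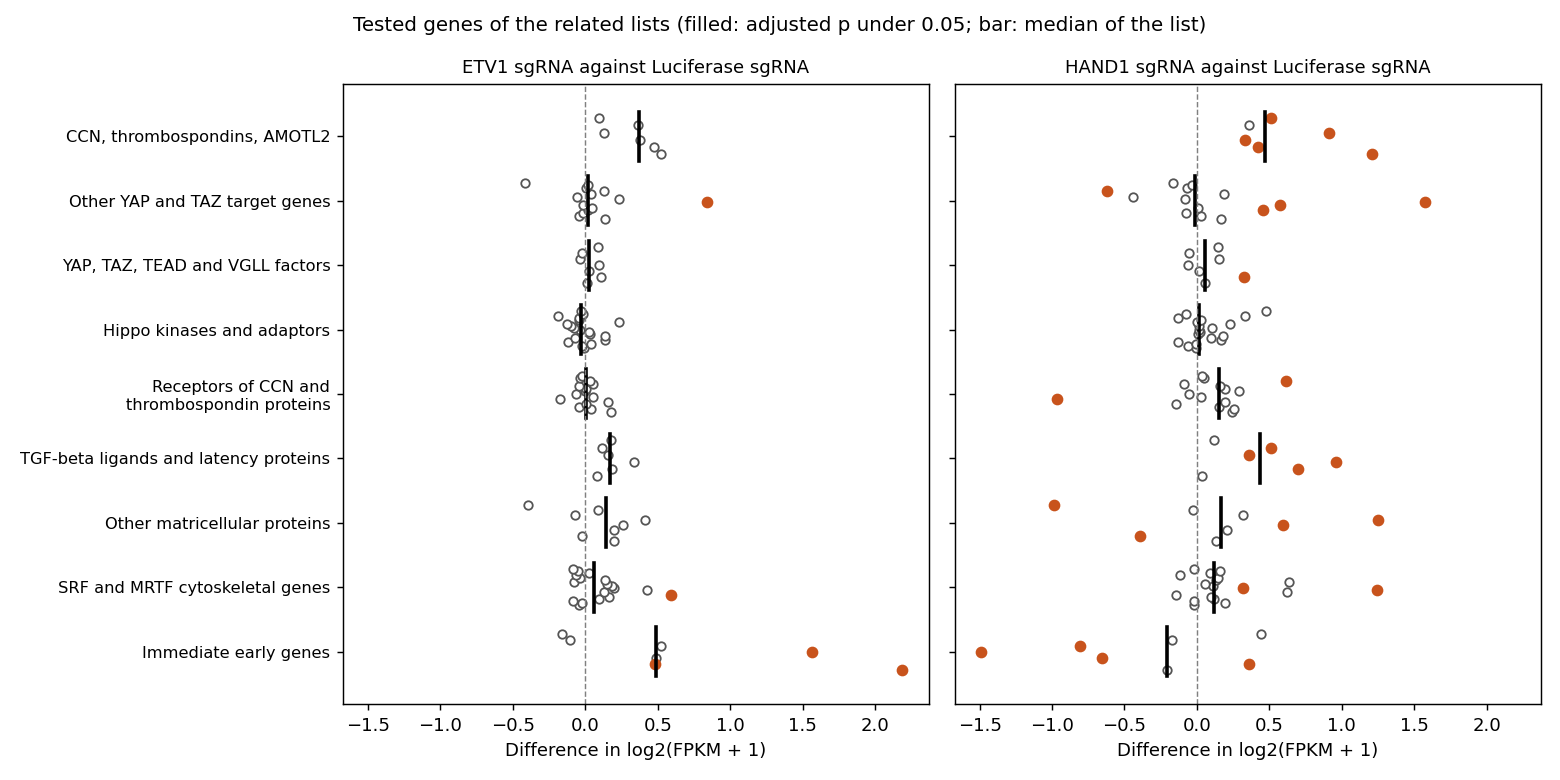
Differences in log2(FPKM + 1) (horizontal axis) from Luciferase sgRNA of the tested genes of each list, with ETV1 sgRNA on the left and HAND1 sgRNA on the right; filled points have an adjusted p under 0.05 and the bar is the median of the list. The CCN, thrombospondin and AMOTL2 genes have a median of 0.37 on the left and 0.47 on the right, while the other YAP and TAZ targets have medians of 0.02 and −0.01.

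Receptors of CCN proteins and thrombospondins changed in 2 of 15 tested genes with HAND1 sgRNA (median 0.15) and in 0 of 15 with ETV1 sgRNA (median 0.01), counts near the shares of all genes tested. SDC1, a heparan sulphate proteoglycan, rose by 0.61 (log2, adjusted p = 3.25e-04), and ITGA4, an integrin subunit, fell by 0.97 (adjusted p = 4.54e-05), from 28.6 ± 1.82 to 14.2 ± 1.11 FPKM. CD47, a receptor of THBS1, was at 10.4 ± 0.630 FPKM in the control and 13.0 ± 1.17 FPKM with HAND1 sgRNA and was not called, and CD36 was below 1 FPKM.

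TGF-beta ligands and their latency proteins had 4 of 6 tested genes higher with HAND1 sgRNA and 0 lower (median 0.43). With ETV1 sgRNA 0 of 6 were called (median 0.17). LTBP1, a latent TGF-beta binding protein, rose from 1.71 ± 0.119 to 4.31 ± 0.627 FPKM (0.96, adjusted p = 5.78e-04), the ligand TGFB3 from 2.46 ± 0.209 to 4.64 ± 0.668 FPKM (0.70, adjusted p = 0.00610) and LTBP3 by 0.36 (adjusted p = 0.00892). LTBP4 rose by 0.51 (adjusted p = 0.0225), a call lost without Luciferase sgRNA replicate 3 (0.0527) and without HAND1 sgRNA replicates 1, 2 and 3 (0.0541, 0.0528 and 0.0943), and with no filter on low values (0.0541). TGFB1, the most abundant ligand, was at 58.8 ± 3.49 and 60.3 ± 1.64 FPKM (0.04, adjusted p = 0.806).

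Other matricellular proteins moved in both directions with HAND1 sgRNA: of 8 tested 2 rose and 2 fell (median 0.17), while 0 of 8 were called with ETV1 sgRNA (median 0.14). POSTN, periostin, rose by 1.25 (log2, adjusted p = 8.31e-04); its control libraries were at 0.777, 0.711 and 0.934 FPKM and its HAND1 sgRNA libraries at 2.85, 2.75 and 4.44 FPKM. TNC, tenascin C, rose by 0.59 (adjusted p = 0.00580). SPARCL1 fell by 0.39 (adjusted p = 0.00224), which quantile normalization took past the threshold (0.0936), and TGFBI fell by 0.99 (adjusted p = 0.00278).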

How the data were processed

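The deposited values are FPKM, 1 per gene symbol and library. The aligner STAR, Cufflinks and the build hg19 appear, with no version, in what is listed per the submitters' processing notes, and the libraries were non-stranded, per the labels' protocols. For annotation, filters and scaling between libraries, the sources used here give nothing, and no read counts were used. Relative depth is the most frequent ratio between libraries among genes of 0.001 to 0.1 FPKM. Values below 1e-06 were read as 0.

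Genes whose mean reached 1 FPKM were fitted on log2(FPKM + 1) (pseudocount 1) in limma 3.58.1 (R 4.3.3), with group as the only term, all 9 libraries and an intensity trend (degrees of freedom: 6 residual, 4.15 prior). Two-sided p-values were adjusted by Benjamini-Hochberg over 11348 genes, and the code was tested on simulated data. An exact test of 3 libraries against 3 cannot go below p = 0.1.

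The genes and lists were chosen with earlier results of these data known, so their counts are descriptions, and no list was tested as a set. The rule for named genes took all members, the remaining family genes, the GIST markers, up to 4 called genes of each related list and comparison by adjusted p (where none was called, the 2 with the highest mean), and the 3 genes most like each called member. YAP1, ANKRD1, AXL, CD36, CD47, TGFB1, CD68, KRT8, KRT18, MTX1, FSIP1 and RPL39P5 were named outside it, after the values were seen. Sequences are from RefSeq (GRCh38.p14); as the files use hg19, no other coordinates are given.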

Additional observations from a re-analysis of the deposited data

How the results depend on the processing

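THBS1, CTGF and AMOTL2 kept their direction and their calls in both comparisons of HAND1 sgRNA under all 19 alternatives (pseudocounts of 0.1 and 5, a minimum of 5 FPKM or none, median centring, quantile normalization, no intensity trend, only the 2 groups compared, library weights, a replicate block, and each of the 9 libraries left out). The number of the 10 genes called, 5 with HAND1 sgRNA, 0 with ETV1 sgRNA and 3 between these sgRNAs, was 3 to 5, 0 to 0 and 3 to 3 with a library left out; it was 3 with HAND1 sgRNA without Luciferase sgRNA replicate 2 and without HAND1 sgRNA replicates 2 and 3, where CYR61 and WISP1 lost their calls. Library weights gave 2 for ETV1 sgRNA (CTGF and WISP1). With the minimum of 5 FPKM, THBS3 gave no value. Differences near 0 between the sgRNAs of HAND1 and ETV1 changed sign: THBS3 was at −0.0027 with a pseudocount of 5, −0.0271 with quantile normalization, −0.0165 with library weights and −0.0889 to 0.138 with a library left out, and CYR61 at −0.144 to 0.0522 with a library left out; the cause was not tested.

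Of all genes tested, 23, 749 and 460 were called with ETV1 sgRNA, with HAND1 sgRNA and between them. With library weights the first 2 counts were 45 and 1312, with only the 2 groups compared the first was 14, and with a library left out the counts were 11 to 26, 433 to 730 and 271 to 583. The replicate block gave 16, 632 and 364, and 0, 5 and 3 of the 10 genes. Same-numbered libraries did not deviate together (correlations of −0.15 to 0.14, 2 of 9 above 0.1), so the numbers were not read as a pairing. Without counts, precision at low FPKM, as for NOV, WISP2, THBS2 and THBS4, cannot be given.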

Other observations

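CTGF and CYR61 are also known to be induced rapidly by serum, so immediate early genes and actin genes controlled by SRF and MRTF were looked at beside them. Over all genes tested, limma called 0.203% with ETV1 sgRNA, 6.60% with HAND1 sgRNA and 4.05% between them, in either direction. Of 7 tested immediate early genes, FOS (2.19, log2), EGR1 (1.57) and JUN (0.48) rose with ETV1 sgRNA and 0 fell in limma. With HAND1 sgRNA EGR1 (−1.49), IER2 (−0.81) and JUNB (−0.65) fell and JUN rose by 0.36. EGR1, FOS, JUNB and IER2 were lower with HAND1 sgRNA than with ETV1 sgRNA, by −3.05, −2.40, −1.14 and −1.33. In that comparison JUN was not called, CYR61 differed by −0.05 and CTGF by 0.68. Whether a serum response had a part in any of these levels was not tested. The call of JUN with ETV1 sgRNA (adjusted p = 0.0209) was lost without Luciferase sgRNA replicates 1 and 2 (0.0677 and 0.0959), ETV1 sgRNA replicates 1 and 3 (0.114 and 0.135) or any single HAND1 sgRNA library (0.0559, 0.0571 and 0.0506 for replicates 1, 2 and 3), and with only the 2 groups compared (0.121). IER2 was not called with ETV1 sgRNA (0.52, adjusted p = 0.180) but was without Luciferase sgRNA replicate 3 (0.0107), with quantile normalization (0.0363), library weights (0.0160) and the replicate block (0.0362), and JUNB (0.49, adjusted p = 0.0825) was without ETV1 sgRNA replicate 2 (0.0367).

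Of 18 tested SRF and MRTF genes, TAGLN, an actin-binding protein of smooth muscle, rose by 1.24 and CNN2, a calponin, by 0.32 with HAND1 sgRNA, and 0 fell (median 0.11). With ETV1 sgRNA ACTA2, smooth muscle actin, rose by 0.59 and 0 fell (median 0.06). The 2 of 18 called with HAND1 sgRNA are near the 6.60% of all genes tested. The 1 of 18 called with ETV1 sgRNA stands beside 0.203%. ACTA2 was not called with HAND1 sgRNA (−0.14, adjusted p = 0.167), and it was lower than with ETV1 sgRNA by −0.73 (adjusted p = 3.71e-05).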
